A study of Mus musculus with 12 samples.

Results

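Bergmann glia are the radial astrocytes of the cerebellar cortex, whose processes ensheath the dendrites and synapses of Purkinje cells. The genes described here are 34 genes known for high expression in Bergmann glia or other astrocytes, and they were followed in RNA from excised Purkinje cells. They were taken by symbol, with no threshold on their level, and make up 34 of the 43346 annotated genes in the deposited tables. The choice was made with earlier results of these data known. All 34 symbols matched 1 identifier each. The series has 1 group of 12 libraries. They come from 1 male B6CASTF1/J mouse (a hybrid of Castaneus and C57Bl6) aged 14 months, with no treatment and no control group. A homogenate of 13 excised Purkinje cells from parasagittal tissue was divided, and each Smart-seq library received 1 cell-equivalent of total RNA above 200 bases with spike-in RNA. Libraries are named by their technical replicate numbers, 1 to 6 and 8 to 13, so every spread and p-value below is technical, among splits of 1 pool. The files hold no measure that separates RNA of attached glia from RNA of the Purkinje cells, so the sources cannot be told apart. In such a pool, fewer cells of a type and less RNA per cell also cannot be told apart.

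Bergmann glia and other astrocytes take up synaptic glutamate through the transporters encoded by Slc1a3 and Slc1a2, turn it into glutamine with the Glul enzyme, and are coupled through gap junctions built from the Gja1 and Gjb6 connexins. They also secrete lipid carriers and matrix proteins, buffer metals with metallothioneins, and carry filaments of vimentin and glial fibrillary acidic protein. Several of the genes, among them Mt3, Clu and Gpm6b, are known to be expressed in neurons as well.

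The libraries held 15167400 to 27806000 expected counts over genes and spike-ins, and gene counts were 5.86 to 19.9 times the spike-in counts. Levels are in TPM, a share of all transcripts scaled for length, whose total includes the spike-ins. The defining Purkinje cell genes were present throughout: none of the 10 on a marker list fell under 50 counts in any library, and they summed to 28143 ± 5651 TPM (SD, n = 12). Marker lists of 10 genes each for other cells summed to far less, with 406 ± 219 TPM for granule cells, 204 ± 91.5 TPM for oligodendrocytes, 129 ± 167 TPM for microglia and 163 ± 147 TPM for endothelial and mural cells (SD, n = 12). Bsg, which neurons also express, gave 133 TPM of the endothelial and mural sum. C1qc among the microglial markers, and Cldn5, Slco1a4 and Acta2 among the endothelial and mural markers, had no count in any library. Malat1 and the overlapping Gm37376, nuclear noncoding RNAs, together took 32238 TPM in library 12 and 339117 TPM in library 1, which sets how much of the TPM total was left for other genes.

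RNA of these genes was found in every library. The 34 genes summed to 13377 ± 2719 TPM (SD, n = 12), which was 1.62% of the TPM of all annotated genes on average. All 34 had a mean of at least 1 TPM, 32 of at least 10 TPM, 20 of at least 100 TPM and 2 of at least 1000 TPM. The range ran from Mt1 at 3869 ± 774 TPM to Gfap at 1.27 ± 4.13 TPM (SD, n = 12). The Gfap mean rested on library 1 and was 0.079 TPM without it.

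**Figure D1:**
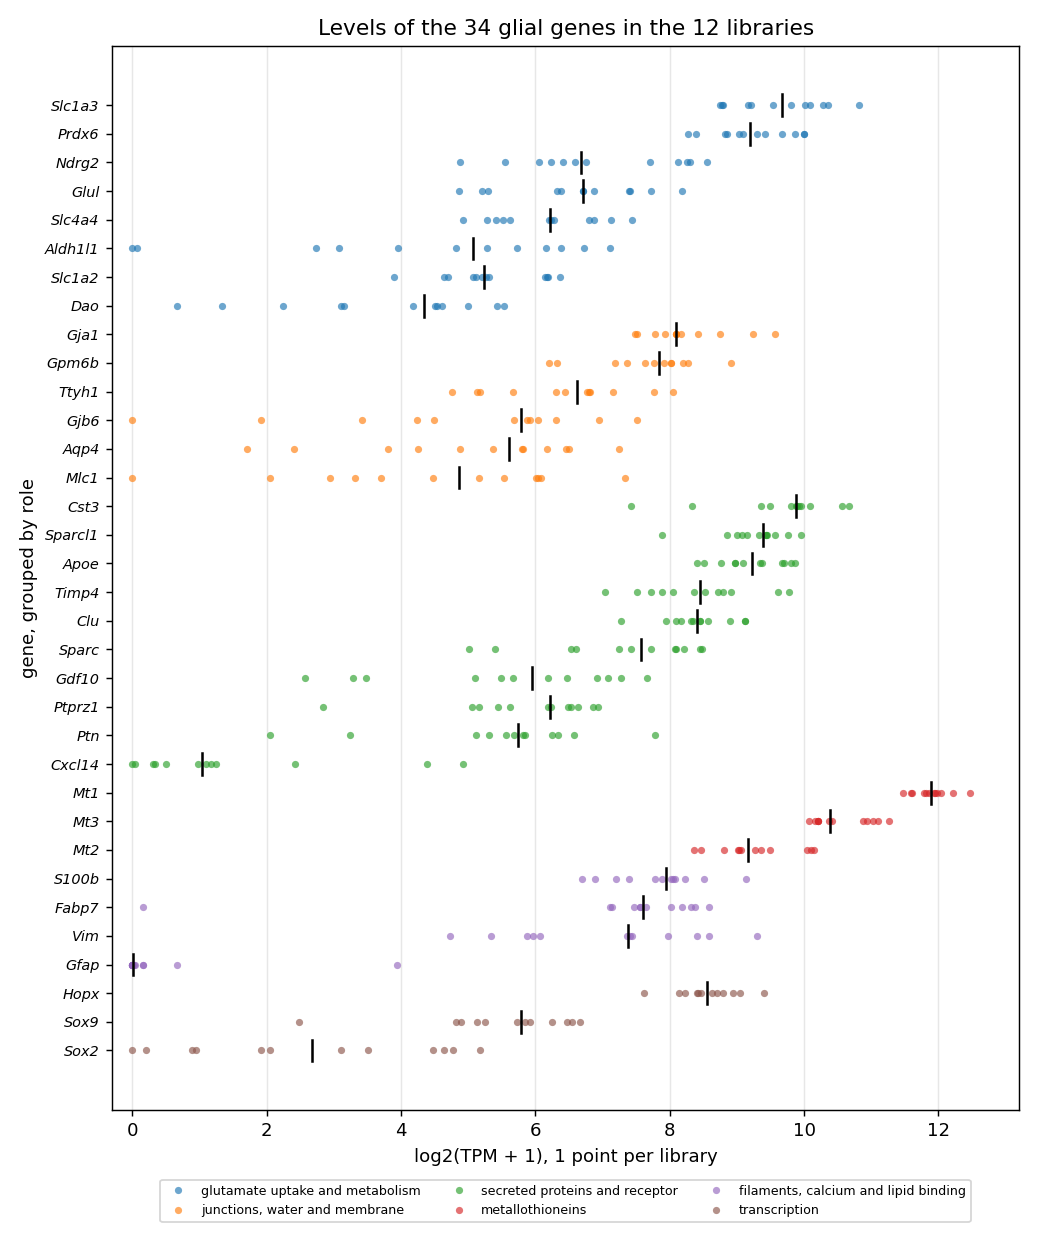
Each point is 1 of the 12 libraries, the horizontal axis is log2(TPM + 1), the black bar is the gene's median, and the genes are grouped by role and ordered by mean TPM within each role. Mt1 lies highest with a narrow range of 2842 to 5654 TPM, while Gfap lies at 0 or close to it except in library 1, and Aldh1l1, Gjb6, Mlc1, Sox2 and Cxcl14 each have 1 library at 0.

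The metallothioneins, small cysteine-rich proteins that bind zinc and copper, gave the highest levels. Their coding sequences are shown because reads of similar genes can be confused, and these 3 genes carry the largest share of the summed TPM of any role described here. The genes lie side by side on the plus strand of mm10 chromosome 8, with Mt3 at chr8:94152607-94154146, Mt2 at chr8:94172664-94173568 and Mt1 at chr8:94179082-94180327. The sequences below join the coding exons (GENCODE M21, 5′ to 3′), and capitals in Mt2 and Mt3 mark the bases that differ from Mt1, or have no partner in it, when each is aligned with Mt1.
Mt1: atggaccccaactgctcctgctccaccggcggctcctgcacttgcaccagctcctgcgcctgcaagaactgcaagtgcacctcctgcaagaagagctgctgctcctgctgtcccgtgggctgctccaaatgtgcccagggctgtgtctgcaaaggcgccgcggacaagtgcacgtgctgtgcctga
Mt2: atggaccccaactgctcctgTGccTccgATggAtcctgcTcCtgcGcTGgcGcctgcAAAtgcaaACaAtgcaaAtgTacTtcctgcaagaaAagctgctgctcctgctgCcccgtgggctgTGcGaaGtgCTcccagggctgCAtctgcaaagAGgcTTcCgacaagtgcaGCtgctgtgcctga
Mt3: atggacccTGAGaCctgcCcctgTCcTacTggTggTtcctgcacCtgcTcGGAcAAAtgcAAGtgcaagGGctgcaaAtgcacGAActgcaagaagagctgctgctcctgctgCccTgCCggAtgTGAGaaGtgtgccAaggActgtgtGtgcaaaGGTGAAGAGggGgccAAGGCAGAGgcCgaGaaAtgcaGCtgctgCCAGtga

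The coding sequences of Mt1 and Mt2 are both 186 bases long and 79.6% identical, and that of Mt3 is 207 bases long and 66.2% identical to Mt1. The longest run of identical bases is 20 between Mt1 and Mt2 and 27 between Mt1 and Mt3. No run of 100 bases is shared among the full transcripts of the 3 genes. Of the 100-base runs of Mt2, 22.4% also lie in Gm45774, an antisense gene. The strand of the libraries is not given in the sources used here, so reads from Mt2 and from Gm45774 cannot be told apart there.

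The 300 bases around each start site (RefSeq promoter table, GRCm38.p6, 250 bases before to 50 after the start, plus strand) are shown because Mt1 and Mt2 are the classic metal-inducible genes. Capitals mark the core of the metal response element, the motif bound by the transcription factor MTF1, searched as TGCACNC and TGCGCNC on both strands.
Mt1 promoter, chr8:94178839-94179138: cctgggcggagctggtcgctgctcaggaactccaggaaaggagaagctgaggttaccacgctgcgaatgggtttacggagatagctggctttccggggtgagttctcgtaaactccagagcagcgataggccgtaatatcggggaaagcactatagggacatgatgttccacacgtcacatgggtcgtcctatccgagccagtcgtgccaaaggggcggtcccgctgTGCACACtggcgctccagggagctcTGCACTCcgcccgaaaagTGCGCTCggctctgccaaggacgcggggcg
Mt2 promoter, chr8:94172368-94172667: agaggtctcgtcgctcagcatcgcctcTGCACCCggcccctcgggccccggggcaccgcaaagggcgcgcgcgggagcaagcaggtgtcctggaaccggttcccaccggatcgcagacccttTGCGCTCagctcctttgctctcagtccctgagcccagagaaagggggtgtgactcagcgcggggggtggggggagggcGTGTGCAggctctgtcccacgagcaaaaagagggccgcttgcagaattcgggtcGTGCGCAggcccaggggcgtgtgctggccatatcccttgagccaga
Mt3 promoter, chr8:94152357-94152656: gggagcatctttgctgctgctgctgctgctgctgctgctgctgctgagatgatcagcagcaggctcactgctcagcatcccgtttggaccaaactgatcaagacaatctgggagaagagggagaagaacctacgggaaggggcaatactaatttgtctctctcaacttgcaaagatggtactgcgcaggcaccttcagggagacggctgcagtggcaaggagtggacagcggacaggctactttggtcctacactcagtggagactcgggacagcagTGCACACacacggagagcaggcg

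The windows hold 3 matches in Mt1, 4 in Mt2 and 1 in Mt3. At least 1 match occurs in 25.7% and at least 3 in 1.97% of the 32851 promoter entries of the same length, so a single match is common. Of the 34 genes, 29 matched the promoter table. Counted by the entry with the most matches of each gene, 13 had at least 1 and 2, Mt1 and Mt2, had at least 3. The shares above are over single entries, so they are not comparable with these counts. A match describes the letters of the window only.

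Mt1 had 2842 TPM in its lowest library, a median of 3799 TPM and 5654 TPM in its highest. Mt3, the metallothionein known for its expression in brain, had 1074, 1343 and 2447 TPM as lowest, median and highest, and Mt2 had 329, 575 and 1134 TPM. Mt1 was above both in every library. Within libraries Mt1 exceeded Mt2 by 2.63 ± 0.52 on the log2(TPM + 1) scale (SD, n = 12; exact two-sided sign-flip test, p adjusted over 13 gene pairs = 0.000577). Mt3 was below Mt1 by the same test (difference -1.32 ± 0.48, SD, n = 12, exact adjusted p = 0.000577). The unadjusted p behind both, 0.000488, is the smallest that 12 libraries allow. Together the 3 genes made up 46.1 ± 4.4% of the summed TPM of the 34 genes, between 41.2% and 56.7% by library. Mt1 alone made up 29.0 ± 1.83%, with a range of 25.9% to 31.4% (SD, n = 12).

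Among the genes of glutamate uptake and metabolism, Slc1a3 led. It encodes GLAST, the main glutamate transporter of Bergmann glia, and lies at chr15:8634124-8710764 (mm10, minus strand). Its TPM was 431 in the lowest library, 818 at the median and 1808 in the highest, library 13. Slc1a2, which encodes GLT-1, the main glutamate transporter of forebrain astrocytes, had 13.9, 36.5 and 81.8 TPM as lowest, median and highest. The ranges of the transporters did not overlap. Slc1a3 exceeded Slc1a2 in 12 of 12 libraries, by 4.29 ± 0.68 on the log2(TPM + 1) scale (SD, n = 12, exact sign-flip test, adjusted p = 0.000577). Glul, glutamine synthetase, had 28.1 TPM in library 12, a median of 104 TPM and 291 TPM in library 2. It was below Slc1a3 in all 12 libraries (difference -3.04 ± 1.30 on the same scale, SD, exact adjusted p = 0.000577).

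Prdx6, a peroxiredoxin that reduces peroxidised phospholipids, had 309, 586 and 1026 TPM as lowest, median and highest. Ndrg2, a cytoplasmic astrocyte protein, averaged 165 ± 123 TPM, and Slc4a4, a sodium bicarbonate cotransporter, averaged 80.2 ± 45.1 TPM (SD, n = 12). Dao, the D-amino acid oxidase that degrades D-serine and is known from Bergmann glia, had 0.58 TPM in library 8, a median of 19.3 TPM and 45.0 TPM in library 10. Aldh1l1, the folate enzyme used as a general astrocyte marker, had no count in library 6 and 2 counts in library 5. Its median was 32.5 TPM and its highest level 137 TPM, in library 12, where Slc1a3 was at its lowest.

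The junction and membrane genes were led by Gja1, the main astrocyte connexin (chr10:56377330-56402513, plus strand), with 179 TPM in the lowest library, a median of 272 TPM and 758 TPM in library 13. Gjb6, a second astrocyte connexin, had no count in library 2, a median of 53.9 TPM and 181 TPM in library 4. Gja1 exceeded Gjb6 in every library, by 3.40 ± 2.06 on the log2(TPM + 1) scale (SD, n = 12, exact sign-flip test, adjusted p = 0.000577). It also exceeded Aqp4, the water channel of astrocyte endfeet, by 3.23 ± 1.56 (SD, n = 12, exact adjusted p = 0.000577). Aqp4 was detected in all 12 libraries but ranged from 2.27 TPM in library 2 to 151 TPM in library 6, with a median of 47.5 TPM. Mlc1, a membrane protein of astrocyte contacts, had no count in library 8, a median of 28.0 TPM and 161 TPM in library 10. The membrane proteins Gpm6b and Ttyh1 were more abundant, with 226 ± 110 TPM and 105 ± 73.7 TPM (SD, n = 12).

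Of the genes for secreted proteins and their receptor, Cst3, cystatin C, a secreted inhibitor of cysteine proteases, averaged 903 ± 418 TPM and was lowest in library 12 at 170 TPM. Sparcl1 (hevin), a matrix protein that astrocytes release at synapses, had 235, 666 and 995 TPM as lowest, median and highest. Its relative Sparc had 31.4, 190 and 356 TPM. Sparcl1 exceeded Sparc in 12 of 12 libraries, by 1.97 ± 1.14 on the log2(TPM + 1) scale (SD, exact sign-flip test, adjusted p = 0.000577).

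Apoe, the main lipid carrier of the brain, averaged 622 ± 208 TPM, against 355 ± 121 TPM for the chaperone and lipid carrier Clu (SD, n = 12). Apoe was the higher in 9 of 12 libraries, by 0.81 ± 0.82 on the log2(TPM + 1) scale (SD, exact sign-flip test, adjusted p = 0.00423). On CPM (counts scaled to the library total), without length scaling, this difference was 0.16 ± 0.78 (SD, n = 12, exact adjusted p = 0.513), so the call rests on the length scaling. Timp4, an inhibitor of metalloproteinases, averaged 393 ± 232 TPM and exceeded Gdf10, a growth factor of the TGF-beta family used as a Bergmann glia marker, in all 12 libraries. Gdf10 had 4.92 TPM in library 10, a median of 60.9 TPM and 202 TPM in library 11. The difference was 2.81 ± 1.88 on the log2(TPM + 1) scale (SD, n = 12, exact adjusted p = 0.000577). On CPM Timp4 was the higher in 10 of 12 libraries, by 1.97 ± 1.92 (SD, exact sign-flip test, adjusted p = 0.00231).

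Ptn, pleiotrophin, and its receptor Ptprz1 had similar means but large spreads. Ptn averaged 63.3 ± 55.8 TPM and Ptprz1 68.6 ± 35.9 TPM (SD, n = 12). Ptn was the higher in 7 of 12 libraries, although the mean difference was below 0, and this difference of -0.37 ± 2.13 did not pass the exact sign-flip test (adjusted p = 0.563), which does not show equal levels. On CPM, where the much longer Ptprz1 transcript gives more reads, the difference was -2.42 ± 2.20 (SD, n = 12, exact adjusted p = 0.00264). Cxcl14, a chemokine, was low, with a median of 1.05 TPM, at least 50 counts in 3 libraries and 29.4 TPM in library 9.

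Among genes for filaments and for calcium and lipid binding, Gfap was close to absent. Gfap (chr11:102887336-102900912, minus strand) encodes the filament protein most used to mark astrocytes, and a noncoding gene on the opposite strand, Gm26668, spans it. It had 652 counts and 14.4 TPM in library 1, 29 counts in library 13, and at most 6 counts in each of the other 10 libraries, 6 of which had none. A count of 0 in a library is compatible with up to 3 counts, by counting error alone. Vim, vimentin, the other intermediate filament protein, had 25.5 TPM in library 3, a median of 166 TPM and 632 TPM in library 9. Vim exceeded Gfap in 12 of 12 libraries, by 6.62 ± 1.71 on the log2(TPM + 1) scale (SD, exact sign-flip test, adjusted p = 0.000577). The size of this difference is set in part by the pseudocount, since Gfap was at 0 in 6 libraries. It was 9.28 with a pseudocount of 0.1 and 3.74 with 10, and it is no bound.

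S100b, a calcium-binding protein of astrocytes, had 102, 246 and 559 TPM as lowest, median and highest, all above Gfap in the same library (difference 7.40 ± 1.54 on that scale, SD, n = 12, exact adjusted p = 0.000577). With pseudocounts of 0.1 and 10 it was 10.07 and 4.44. Fabp7, the brain lipid-binding protein of radial glia, averaged 217 ± 105 TPM (SD, n = 12). It had at least 1660 counts in 11 libraries and 2 counts in library 12.

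Of the transcription genes, Hopx, a homeodomain protein without DNA binding that marks radial glia and Bergmann glia, had 194, 373 and 675 TPM as lowest, median and highest. Hopx shares 20.7% of its 100-base runs with the antisense gene Hopxos, and reads from the shared bases cannot be told apart without strand. Sox9, a regulator of glial fate, averaged 54.5 ± 29.7 TPM and was present at 50 or more counts in all 12 libraries. Sox2, a regulator of stem cell and glial identity, averaged 11.1 ± 12.4 TPM and had no count in library 9 (SD, n = 12). Sox9 exceeded Sox2 in all 12 libraries, by 2.86 ± 1.63 on the log2(TPM + 1) scale (SD, exact sign-flip test, adjusted p = 0.000577). With a pseudocount of 10 the difference was 1.65. Across the 13 pairs, 12 passed this test and the exception was Ptn against Ptprz1.

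A further 59 genes of astrocytes and of the Notch and Sonic hedgehog pathways, none of them among the 34, summed to 8546 ± 1820 TPM (SD, n = 12). Of these, 50 had a mean of at least 1 TPM, 22 reached 50 counts in each library and 5 had no count at all. In transport and ion buffering, genes among the highest were Fxyd1, a regulator of the sodium pump, at 681 TPM, the pump subunit Atp1b2 at 195 TPM, and the mitochondrial glutamate carrier Slc25a18 at 74.5 TPM. Among lipid, enzyme and secreted genes they were the acyl-CoA binding protein gene Dbi at 4173 TPM, the receptor Gpr37l1 at 272 TPM, the cholesterol acyltransferase Lcat at 231 TPM and the neurotensin receptor Ntsr2 at 181 TPM. In the pathway and transcription list they were Id2 at 1030 TPM and Id4 at 111 TPM, inhibitors of basic helix-loop-helix factors, and the nuclear factor I genes Nfix at 55.6 TPM and Nfia at 39.9 TPM. Among the genes without a count were Slco1c1, a thyroid hormone transporter, the Wnt inhibitor Wif1, the Notch target Hes5 and the transcription factor Lhx2.

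Detection of the glial genes was even where their level was high. Of the 34, 28 had a count in all 12 libraries and 26 had at least 50 counts in all 12, against 3.72% of the 43346 annotated genes at that threshold. Most annotated genes are far lower, so the share was also taken by level. Of the 18 glial genes with a mean of 100 to 1000 TPM, 17 met the threshold, against 72.1% of all genes at that level. Of the 12 with a mean of 10 to 100 TPM, 7 did, against 13.7%. The threshold is in counts and the level is per length, so long transcripts pass more easily at a given TPM. The 7 include Slc1a2, Ptprz1 and Slc4a4, with leading transcripts of 11595, 8068 and 7931 bases. They also include Gdf10 and Ptn, with 2507 and 2021 bases. The part of length in this share was not tested. Among markers of other cells, the threshold was met by 4 of 10 granule cell, 1 of 10 oligodendrocyte and 0 of 10 microglial markers. All of these had means under 100 TPM, and some were under 10 TPM. Means of at least 10 TPM were found for 8 granule cell, 3 oligodendrocyte and 4 microglial markers. Of the endothelial and mural markers 1 of 10 met the threshold, Bsg, with a mean of 133 TPM. Lists this short do not show whether these markers differ from all genes. The 6 genes with no count in at least 1 library were Aldh1l1, Gjb6, Mlc1, Cxcl14, Gfap and Sox2.

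The spread was measured as the coefficient of variation (CV, SD divided by mean). At 10 to 100 TPM the median CV was 0.842 for the 12 glial genes and 1.30 for all genes, and all 12 lay below the latter. At 100 to 1000 TPM it was 0.488 for the 18 glial genes and 0.602 for all genes. Set against the running median of the genes nearest in mean TPM, 25 of 34 glial genes had the smaller CV, with a median ratio of 0.899. Slc1a2 had the lowest ratio, 0.455, and Vim the highest, 1.47. Against genes nearest in mean count instead, 15 of 34 had the smaller CV and the median ratio was 1.03, so the direction depends on whether level is taken per length. The ratio of Slc1a2 was then 1.17 and that of Vim 1.44. The 10 Purkinje cell genes all lay below the running median by both measures, with median ratios of 0.637 and 0.670. By mean TPM, 10 of 10 granule cell markers (median ratio 0.797) and 36 of 50 further astrocyte genes (0.801) also had the smaller CV. Of 8 oligodendrocyte markers 3 did (1.14). By mean count the numbers were 5 of 10 (0.969), 27 of 50 (0.946) and 2 of 8 (1.12). The 50 and the 8 are those with a mean of at least 1 TPM.

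**Figure D2:**
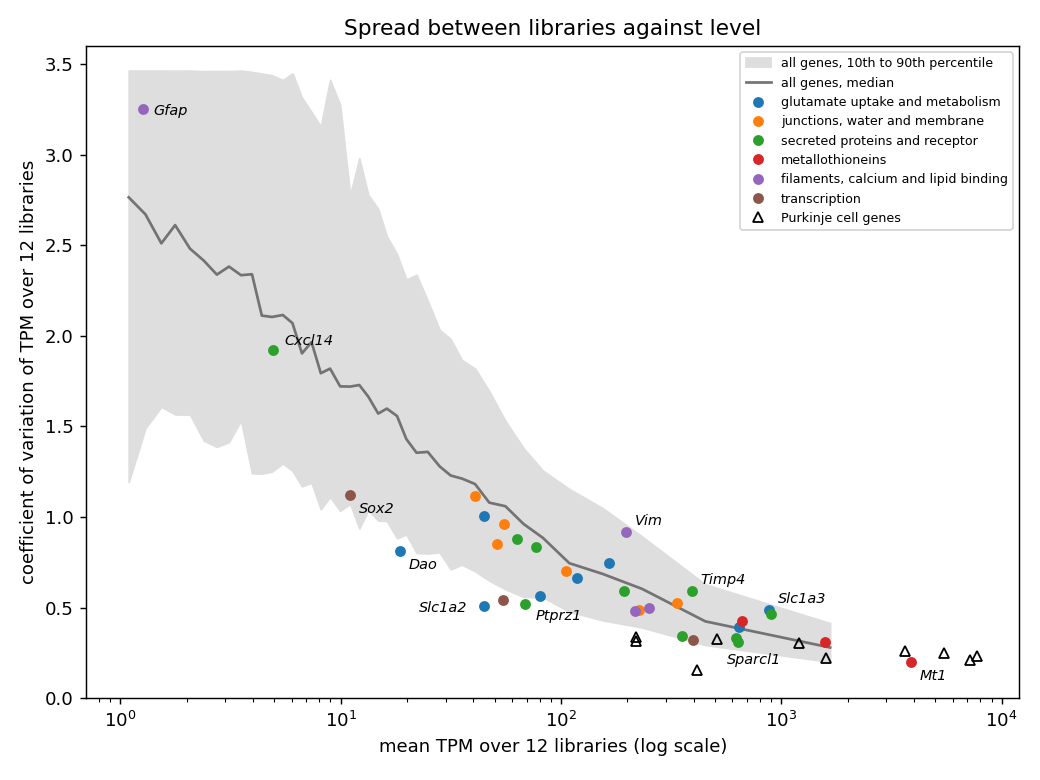
The horizontal axis is mean TPM over the 12 libraries on a log scale and the vertical axis is the CV of TPM, with circles for the 34 glial genes coloured by role, triangles for the 10 Purkinje cell genes, and a line and grey band for the median and the 10th to 90th percentiles of all annotated genes in bins of level. Vim and Slc1a3 lie above the line, with CVs of 0.918 and 0.487, and Slc1a2, at 0.508, lies below the band.

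Variation was also tested gene by gene on the counts. The variation of each gene among the 12 libraries was compared with the abundance trend of all tested genes by edgeR's quasi-likelihood dispersions with Benjamini-Hochberg adjustment. None of the 34 glial genes passed an adjusted p of 0.05, against 2 of 13899 genes tested, or 0.0144%. At an unadjusted p under 0.05, 1 glial gene varied more than the trend, against 0.684% of all genes tested. It was Slc1a3, whose dispersion was 5.77 times the trend (edgeR, unadjusted p = 0.00882, adjusted p = 0.773). The median ratio to the trend was 0.782 over the 34 glial genes and 1.20 over all genes tested. For the 10 Purkinje cell genes it was 2.10, unlike their CVs, which lay below the running median. At an unadjusted p under 0.05 in edgeR, 4 of these 10 varied more than the trend, and none passed the adjustment.

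Libraries differed in the summed level of the 34 genes. The summed TPM of the 34 genes was lowest at 9121 in library 1, had a median of 13086, and was highest at 19262 in library 13. Library 13 had the highest level of 9 genes, among them Slc1a3, Gja1, Gpm6b, S100b, Fabp7 and Mt1, and was above the median in 28 of 34. Library 12 had the lowest level of 9 genes, among them Slc1a3, Glul, Cst3, Sox9 and Fabp7, while its Aldh1l1 was the highest of all libraries. The endothelial and mural sum was also highest in library 13, at 444 TPM. There Vtn had 100.9 TPM, Ly6c1 99.5 TPM and Rgs5 80.9 TPM. In the other 11 libraries Vtn and Rgs5 were at most 0.46 and 1.01 TPM, and Ly6c1 was at 0 except for 45.0 TPM in library 9. The granule cell sum in library 13 was 612 TPM, against a median of 379 TPM and a highest value of 708 TPM in library 4. The oligodendrocyte and microglial sums in library 13, 155 and 57.2 TPM, were near their medians of 165 and 56.3 TPM. The sum of the 59 further astrocyte and pathway genes was also highest in library 13, at 11942 TPM. The part of these other cells in the library 13 values was not tested, and without this library the 34 genes averaged 12842 TPM in sum. Without the metallothioneins the sum was 4255 TPM in library 12 and 10364 TPM in library 13. The summed TPM of the Purkinje cell genes ran the other way in these libraries, with 36179 in library 12 and 21159 in library 13. This did not hold in library 1, where the glial sum was lowest and the Purkinje cell sum, 22748 TPM, was under its median of 28507 TPM. The lowest and highest Purkinje cell sums were 20871 TPM in library 4 and 36639 TPM in library 8. Library 13 also had the highest ratio of gene to spike-in counts, 19.9, and library 1, with the lowest glial sum, the next highest, 18.4. With the Malat1 locus left out of the TPM total, an alternative chosen after seeing the data, library 12 was lowest at 12892 TPM and library 13 highest at 24841 TPM, and library 1 had 15623 TPM. The part of library yield in these differences was not tested.

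**Figure D3:**
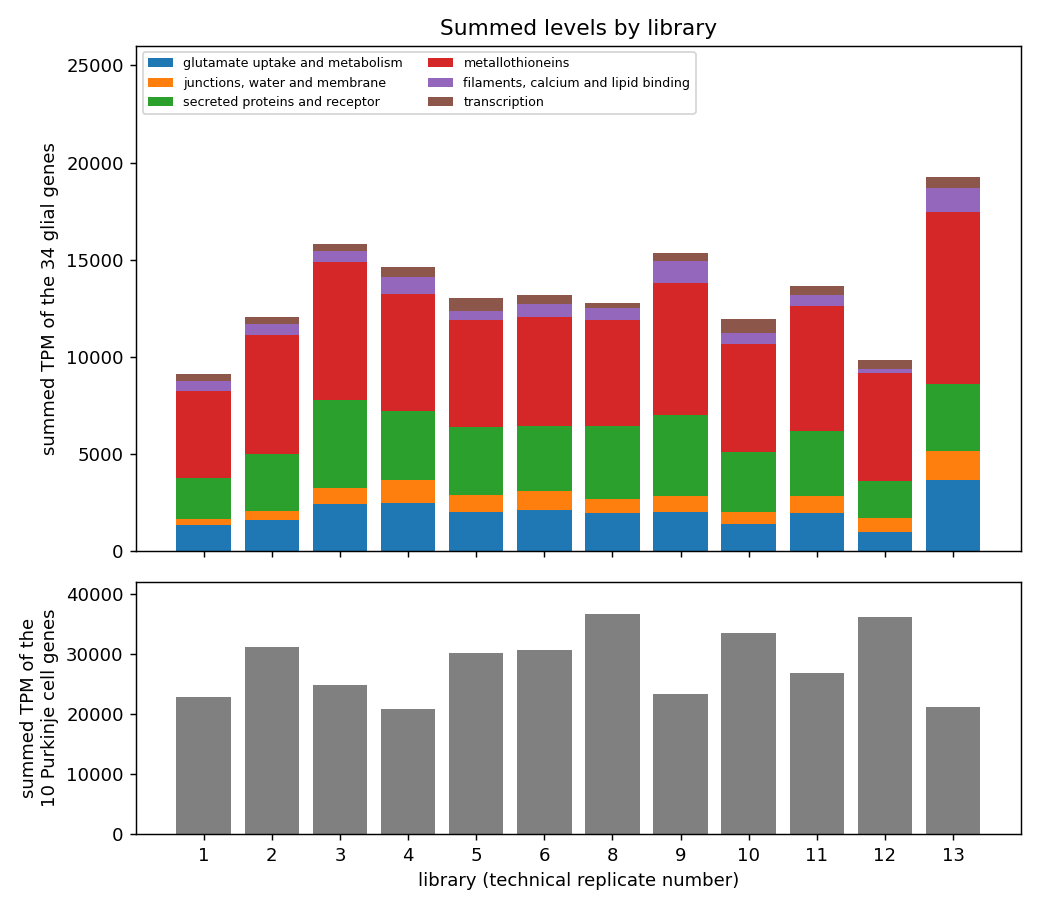
The upper bars give the summed TPM of the 34 glial genes in each of the 12 libraries, stacked by role, and the lower bars the summed TPM of the 10 Purkinje cell genes. The glial bar is highest in library 13, at 19262 TPM, and lowest in library 1, at 9121 TPM, and the metallothionein part is 41.2% to 56.7% of each.

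**Figure D4:**
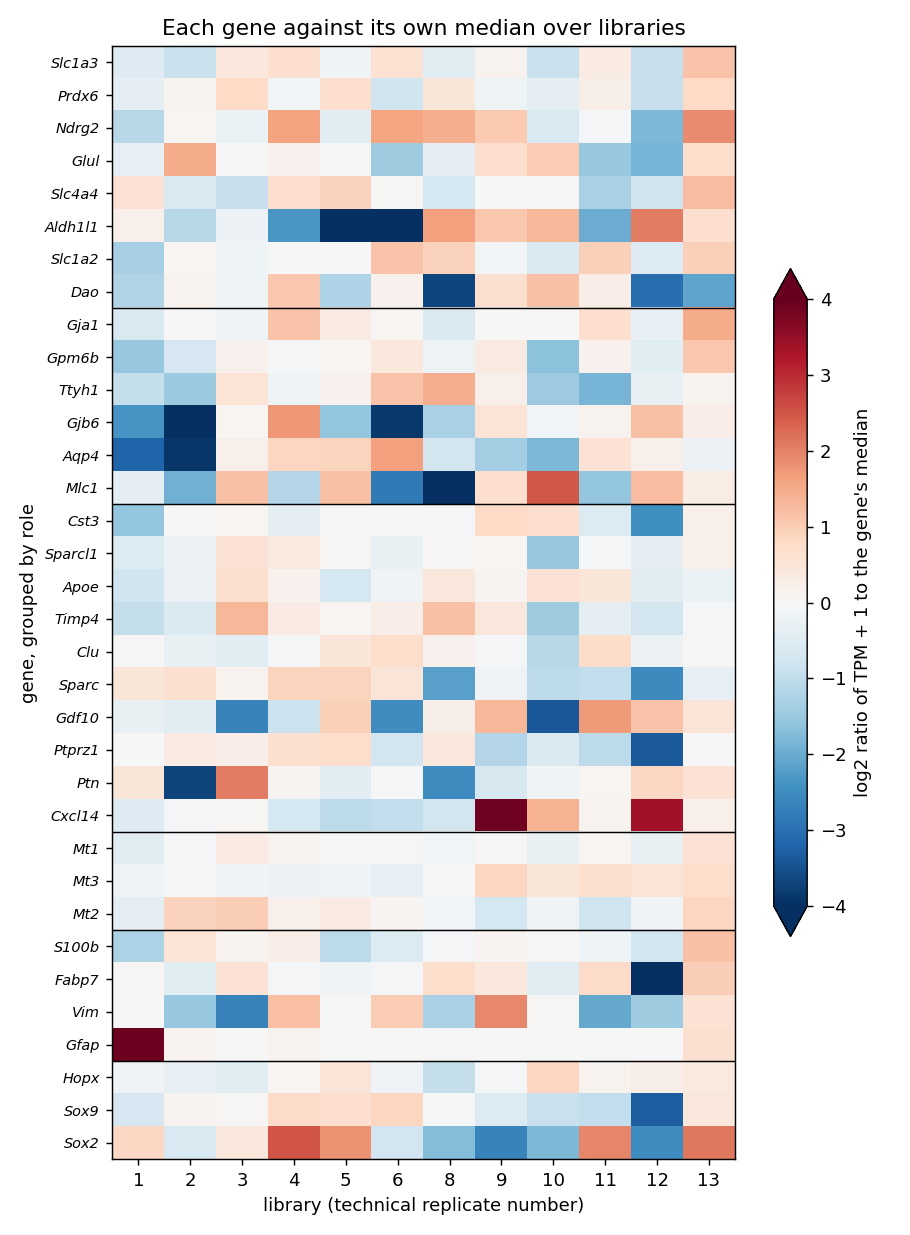
Rows are the 34 glial genes grouped by role, columns are the 12 libraries, and colour is the log2 ratio of TPM + 1 to the gene's own median, cut at 4 in both directions. Library 13 is red in most rows, being above the median in 28 of 34 genes, and single dark blue cells mark low values such as Fabp7 in library 12 and Gjb6 in library 2.

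Whether other genes moved with Slc1a3 over the 12 libraries was tested by the slope of each gene's log2 count level on the log2 CPM of Slc1a3 (edgeR's quasi-likelihood test, TMM scaling). No glial gene of 33 and no gene of 13898 passed an adjusted p of 0.05, so the background was 0%, while DESeq2 called 2206 genes, none of them among the 33. At an unadjusted p under 0.05, 4 of 33 glial genes had a positive slope, against 10.5% of all genes tested, and none had a negative slope, against 6.15%. They were Gja1, with a slope of 0.66 ± 0.23 (SE, edgeR unadjusted p = 0.0099, adjusted p = 0.112), and Gpm6b, with 0.73 ± 0.26 (SE, edgeR adjusted p = 0.114). The others were Sparcl1, at 0.49 ± 0.20 (SE, edgeR adjusted p = 0.172), and Mt1, at 0.32 ± 0.14 (SE, edgeR adjusted p = 0.24). The share of 4 in 33 is close to the background share over all genes tested. It rested in part on single libraries, with 1 glial gene at that p in either direction without library 13 and 2 without library 10. The background also depends on the filter. Among genes with a count in at least 10 libraries, a limit chosen after seeing the data, 3 of 32 glial genes had that p in either direction. Over all 6165 such genes the number was 176.

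Slopes above 0 were found for 25 of the 33 glial genes, with a median of 0.32, against 52.3% of all genes and a median of 0.07. Of the 54 tested genes on the list of other astrocyte genes, 37 were above 0, with a median of 0.35. Of the 10 Purkinje cell genes, 1 was above 0, with a median of -0.34. The steepest glial slopes in either direction were those of Sox2, at 1.77 ± 1.62, and of Gfap, at -2.93 ± 2.21 (SE), both with large errors.

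Scaling by the spike-in totals changed this result. Then 7 of 33 glial genes passed an adjusted p of 0.05 in edgeR, all with positive slopes, against 4.28% of all genes tested. They were Gja1, Gpm6b, Mt1, Ndrg2, Prdx6, Slc4a4 and Sparcl1. Under this scaling 30 of 33 glial genes and 10 of 10 Purkinje cell genes had slopes above 0, and 2 Purkinje cell genes passed. Most genes did the same, with slopes above 0 for 10822 of all 13898 genes tested. The ratio of gene to spike-in counts, 5.86 to 19.9 by library, enters every slope under this scaling, and its part in the result was not tested. Limited to genes with a count in at least 10 libraries, an alternative chosen after seeing the data, spike-in scaling called 5 of 32 glial genes (Gja1, Gpm6b, Mt1, Slc4a4 and Sparcl1), against 0.568% of 6165 genes and none of the Purkinje cell genes. With TMM scaling on the same 6165 genes edgeR called 0, with 176 at an unadjusted p under 0.05.

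The genes with the smallest p in the slope test with TMM scaling were sparse. In the positive direction they were Oplah, Fbrs, Cpq, Txnrd2 and Smtn, and in the negative direction 1600025M17Rik, Brsk1, 5730522E02Rik, Ccdc173 and Gm6490, each with 50 or more counts in 1 to 3 libraries. None is an astrocyte marker on the lists used here, and none passed the adjustment.

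**Figure D5:**
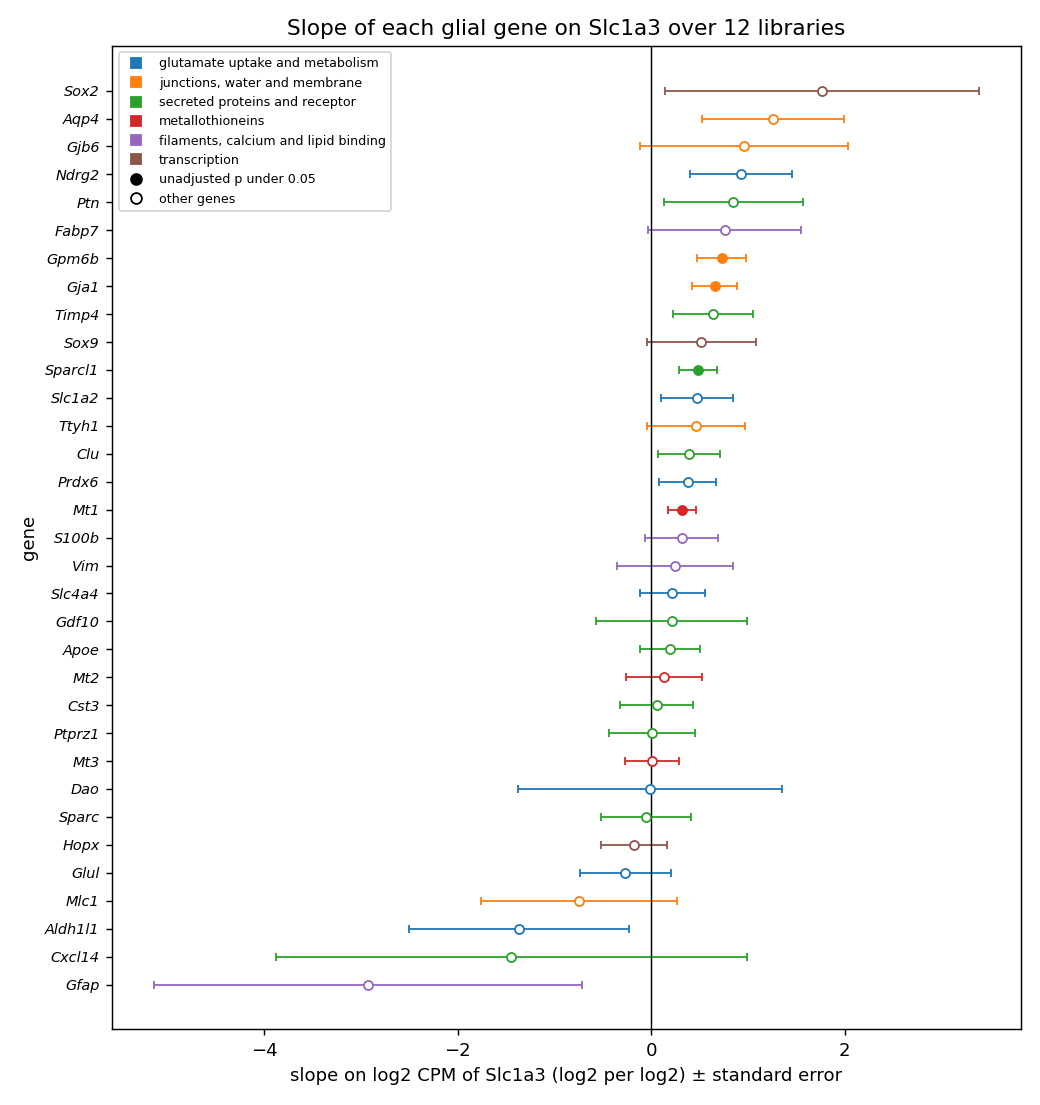
Each row is 1 of the 33 glial genes other than Slc1a3, the horizontal axis is its slope on the log2 CPM of Slc1a3 over the 12 libraries, bars are ± 1 standard error, colours give the role, and filled points have an unadjusted p under 0.05. The 4 filled points, Gpm6b, Gja1, Sparcl1 and Mt1, lie between 0.32 and 0.73, and 25 of the 33 points lie right of 0.

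The authors' transcript tables show how far each gene's level was carried by 1 transcript. Of the 32 genes with a mean of at least 10 TPM, 19 have 2 or more transcripts. The leading transcript was the same in every library with the gene for 8 of the 19, and held over 90% of the summed TPM in 7. For Slc1a3 the leader, of 4163 bases, held 93.2%, and for Apoe the leader, of 1104 bases, held 93.9%. In Dao, Glul and Prdx6 it held 54.7%, 61.0% and 62.1%. In Ttyh1, Gpm6b and Sparc the leader held under 50%, with 42.7%, 22.6% and 38.1%. For Vim a 535-base transcript led with 59.5% of the TPM but held 21.7% of the counts, since TPM divides by length, and the 2193-base transcript averaged 79.5 TPM. The leader was the same by counts in 17 of the 19 genes. In GENCODE M21, 11 of the 34 genes overlap a gene on the opposite strand, and 6 share a run of 100 transcript bases with another gene, so their levels are less certain where reads could be split. Beside Mt2 and Hopx, the largest such share was 6.49% of the 100-base runs of Aldh1l1, with the antisense gene Gm15756.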

How the data were processed

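Gene and transcript levels were taken from 12 Smart-seq libraries split from 1 homogenate. The authors deposited expected counts and TPM per gene and per transcript, made on mm10 with GENCODE M4, per the deposited text files. The sources used here do not give the aligner, the quantifier or the strand. Identifiers were given symbols and mm10 coordinates with GENCODE M21, and 42462 of 43346 identifiers matched. The 34 genes, the other lists and the tests were chosen with earlier results of these data known. Genes named beyond the 34 were the 4 highest of each further astrocyte list, those with no count, and the 5 smallest p in each direction of the slope test. Some genes that this rule names are not reported here.

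Expected counts were rounded to whole numbers and genes averaging 5 or more counts were tested in edgeR 4.0.16 (R 4.3.3) with TMM factors, quasi-likelihood fits and Benjamini-Hochberg adjustment over all genes. Variation between libraries was tested one-sidedly, as a gene's quasi-dispersion over the value that the trend gives at its abundance, and slopes used the centred log2(CPM + 1) of Slc1a3. Pairs of genes were compared on log2(TPM + 1), a pseudocount of 1, by an exact two-sided sign-flip test over all 4096 patterns (SciPy 1.17.1). Both count tests were run on simulated data first, where the slope test also called unchanged genes with counts in few libraries, and almost none once genes were limited to those with a count in at least 10 libraries. DESeq2 1.42.0 was an alternative for the slope. Depth was 15167400 to 27806000 expected counts per library. Intervals of counting error do not cover amplification, since the libraries have no molecular identifiers in the files.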

Additional observations from a re-analysis of the deposited data

How the results depend on the processing

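The summed TPM of the 34 genes, 13377, was 16151 when TPM was rescaled to annotated genes and 18289 when the Malat1 locus was also left out, the second chosen after seeing the data. Leaving out each library in turn gave 12842 to 13764. Under those rescalings 33 and 28 of the 34 single levels moved by less than 1 SD. At thresholds of 1, 5 and 10 counts, and of 1 TPM, the genes detected in every library numbered 28, 27, 27 and 26, against 8.46%, 5.45%, 4.73% and 3.93% of all annotated genes.

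In the variation test no glial gene was called under any alternative run. Calls over all genes were 2, with 0 among genes with a count in at least 10 libraries (chosen after seeing the data) and 1 to 2 with each library left out, the 1 without library 1.

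In the slope test 0 glial genes were called, against 7 with spike-in totals, 5 with spike-in totals and genes with a count in at least 10 libraries, and 1 with Gja1 as the covariate, which was Slc1a3. Calls over all genes were 0, against 595, 35 and 928 in the same order, 604 with no filter and 2206 by DESeq2, the last 2 with no glial gene among them. RLE factors, a mean count of at least 50, ranks, blocks of replicate numbers and leaving out each library gave 0 calls. The cause of the larger counts was not tested.

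All 13 pairs kept their calls with pseudocounts of 0.1 and 10 and with each library left out, where 12 were called throughout. With a pseudocount of 10 the sizes for Vim against Gfap, S100b against Gfap and Sox9 against Sox2 shrank by over 1.5 times, to 3.74, 4.44 and 1.65, and on CPM that for Sparcl1 against Sparc grew to 3.01. The difference between Ptn and Ptprz1 had a range of -0.74 to 0.0047 over the libraries left out, reversed at 0.0047 without library 2. On CPM Apoe against Clu lost its call and Ptn against Ptprz1 gained one. Leaders above 90% numbered 7 by TPM and 12 by counts. No comparison between groups was possible because there is 1 group. Technical splits of 1 pool from 1 mouse limit every result to technical spread.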

Other observations

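The following patterns were noticed after the values were seen, and were not tested. Mt3 fell into separate ranges over the libraries. Libraries 9 to 13 had 1886 to 2447 TPM, and the other 7 libraries had 1074 to 1367 TPM. Mt1 had 3087 to 5654 TPM in libraries 9 to 13 and 2842 to 4770 TPM in the other 7, so its ranges overlapped.

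The TPM and the counts of Slc1a2 ordered the libraries differently. Library 6 had the highest TPM, 81.8, with 3936 counts, while library 8 had 69.5 TPM with 16285 counts. The leading transcript of Slc1a2, of 11595 bases, held as little as 17.7% of the gene's TPM in 1 library, and a 567-base transcript was the next in mean TPM.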
